A study of Arabidopsis thaliana with 9 samples.

Results

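The cytosolic ribosomal proteins of Arabidopsis thaliana were followed through brief cold: 209 of the 25320 genes in the deposited expression table. Members were the genes whose symbol is a ribosomal protein name (RPS for the small subunit, RPL for the large subunit, RPP for the stalk, then a number and a copy letter). A name match counted only where neither protein description mentions a chloroplast, plastid or mitochondrion. Of 214 name matches, 5 carried such a description and were left out. The members comprised 88 small-subunit genes, 109 large-subunit genes and 12 stalk genes, which fall into 78 families of paralogs that share a ribosomal protein number. In the table, 204 are described as 40S, 60S or acidic ribosomal proteins, and the other 5 have no description. Since 15 symbols are shared by more than 1 locus, the locus is given with such names.

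RNA came from stems and leaves of wild-type seedlings, 2 weeks old and grown in soil, in 9 libraries. Control plants had normal growth conditions (0 cycles, day 0). Cold was given in cycles, 6 h at 4 °C each with room temperature for the next 18 h: cold once plants had 1 cycle (day 1) and repeated cold plants had 4 (day 4), with 3 libraries in each group. A further 6 h at 0 °C is mentioned, without saying on which side of it the plants were sampled. Number of cold cycles and day of sampling, hence plant age, differ together and cannot be told apart.

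Each eukaryotic ribosome holds a single copy of nearly every one of these proteins, arranged on ribosomal RNA in a small subunit, which binds and decodes mRNA, and a large subunit, which forms peptide bonds. The acidic stalk proteins are the exception: they form a flexible arm on the large subunit that recruits translation factors. In plants each protein is encoded by a small family of paralogs rather than a single gene, and the output of these genes follows growth and the TOR kinase pathway. Their promoters commonly carry a telo box and site II elements, short motifs also found in other genes of growing cells.

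Both motifs were frequent in the promoters of these genes. In a window from 250 bases before to 50 bases after the annotated gene start (TAIR10.1, both strands), the telo box AAACCCTA stood in 105 of 209 members (50.2%), against 5.94% of 23578 protein-coding genes. A site II element, TGGGCC or TGGGCT, stood in 160 members (76.6%), against 23.4%. Both motifs together were in 87 members (41.6%), against 2.31%, whereas the TATA box TATAAA was in 62.2%, against 51.9%. Neighbouring matches may share letters (the telo box with the TATA box or with a site II element), and a palindromic TGGGCCCA counts on both strands. These are matches of letters, described without a test. The 200 bases before the gene start are shown for 6 members whose values are described here, the small-subunit paralogs RPS6A (chr4:15347805-15348004, minus strand) and RPS6B (chr5:3260255-3260454, minus strand), RPL19B (chr3:5708626-5708825, plus strand), RPL30B (chr1:29305412-29305611, minus strand), the stalk gene RPP2C (chr3:10681829-10682028, plus strand) and RPS5A (chr2:15649472-15649671, minus strand). They are read 5′ to 3′ toward the gene from the RefSeq TAIR10.1 genome, with telo boxes and site II elements of either strand in capitals.
RPS6A: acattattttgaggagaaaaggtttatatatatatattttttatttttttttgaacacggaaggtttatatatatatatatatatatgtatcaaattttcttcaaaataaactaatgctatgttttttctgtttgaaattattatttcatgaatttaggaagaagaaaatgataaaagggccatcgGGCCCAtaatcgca
RPS6B: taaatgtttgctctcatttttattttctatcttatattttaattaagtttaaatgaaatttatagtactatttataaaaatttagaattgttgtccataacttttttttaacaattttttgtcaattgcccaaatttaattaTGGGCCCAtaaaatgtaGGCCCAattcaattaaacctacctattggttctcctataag
RPL19B: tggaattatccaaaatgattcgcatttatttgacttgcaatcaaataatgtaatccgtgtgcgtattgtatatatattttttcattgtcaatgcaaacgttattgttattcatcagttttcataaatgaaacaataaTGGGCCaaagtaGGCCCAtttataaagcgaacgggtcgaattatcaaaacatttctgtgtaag
RPL30B: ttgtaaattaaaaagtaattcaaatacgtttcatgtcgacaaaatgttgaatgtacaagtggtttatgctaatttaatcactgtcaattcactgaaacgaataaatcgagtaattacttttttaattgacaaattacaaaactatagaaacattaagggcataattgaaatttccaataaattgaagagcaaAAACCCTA
RPP2C: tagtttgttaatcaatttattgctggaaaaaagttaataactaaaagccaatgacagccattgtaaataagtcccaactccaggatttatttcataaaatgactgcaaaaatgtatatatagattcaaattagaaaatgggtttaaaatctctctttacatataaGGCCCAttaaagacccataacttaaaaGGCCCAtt
RPS5A: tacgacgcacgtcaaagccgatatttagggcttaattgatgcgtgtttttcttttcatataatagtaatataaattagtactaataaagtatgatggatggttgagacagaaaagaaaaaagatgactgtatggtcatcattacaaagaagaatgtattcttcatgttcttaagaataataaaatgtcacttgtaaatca
In these stretches RPS6A has 1 site II match, RPS6B has 3, RPL19B has 2 and RPP2C has 2, while RPL30B has the only telo box and RPS5A has neither motif. None of these stretches overlaps an annotated exon. In the longer window counted above, RPS6B, RPL19B and RPP2C hold a telo box as well, and RPS6A and RPS5A do not. RPP2C was lower in cold once, and RPS6A, RPS6B and RPL19B, which share site II elements with it, were higher.

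**Figure D1:**
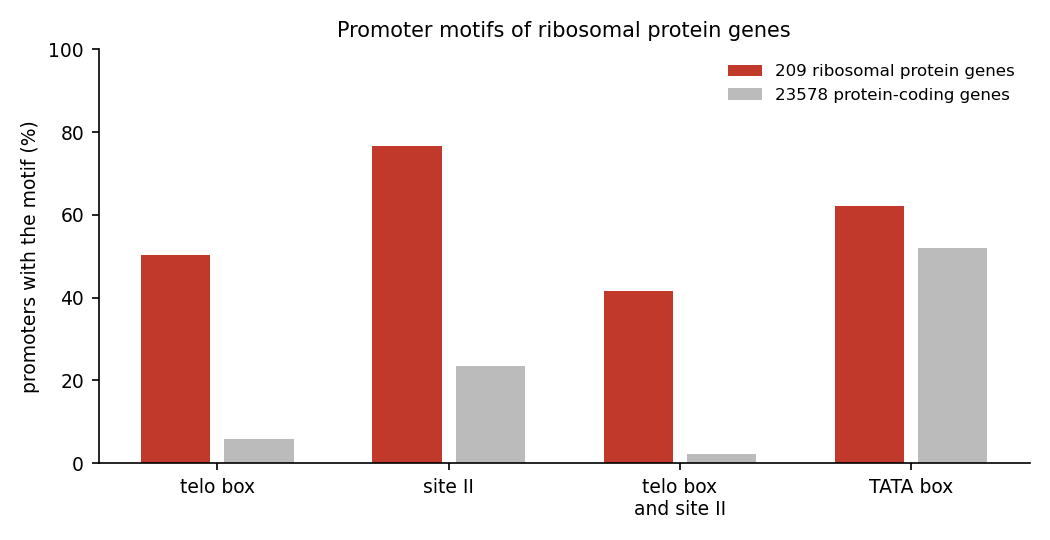
Share of promoters (percent) that hold a telo box, a site II element, both, or a TATA box within 250 bases before to 50 bases after the gene start, for the 209 ribosomal protein genes (red) and 23578 protein-coding genes (grey). The telo box stands in 50.2% of the ribosomal protein promoters and in 5.94% of the protein-coding ones.

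The members also have short coding regions, with a median of 441 bases (from 78 bases in RPL41 genes to 1224) against 1110 bases over protein-coding genes, and a median of 4 exons in both sets. They lie on all 5 nuclear chromosomes, 62 of them on chromosome 3. As RNAs they were abundant. The 198 members that passed the filter (at least 1 FPKM in at least 3 of the 9 libraries) had a median level of 132 FPKM over all libraries, against 10.02 FPKM for all 17740 genes that passed, and ranged from 1.62 to 526 FPKM. FPKM counts fragments relative to the length of the gene model and the depth of the library. A mean of 100 FPKM or more was reached by 117 members, and by 5.5% of all genes tested. The highest were RPL19A (526 FPKM), RPS8A (479.9 FPKM) and RPL14B (476 FPKM). The 11 members below the filter never exceeded 1.32 FPKM. Among them are RPP2E, RPL13C, RPL22A, RPL41C (AT2G40205), RPL8B, RPS15AC, RPS15C, RPS15E, RPS15F and RPS23A, and 10 of the 11 were at 0 in at least 1 library, where a count of 0 allows up to 3 reads.

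Ribosomal protein mRNA made up a larger part of the summed FPKM after cold. The summed FPKM of the 209 members was 3.10%, 4.14% and 3.69% of all FPKM in the control libraries, 5.14%, 5.34% and 5.22% in cold once, and 4.47%, 5.59% and 4.55% in repeated cold. All libraries of both cold groups lay above all control libraries. As a share of the reads recovered from the FPKM values, the members held 1.86%, 2.61% and 2.24% in control. That share was 3.13%, 3.26% and 3.17% in cold once, and 2.67%, 3.54% and 2.73% in repeated cold. The median FPKM of the tested members was 86.8, 123 and 107 in control, 148, 158 and 149.9 in cold once, and 127, 172 and 124 in repeated cold. The cold once libraries lay close together, whereas control and repeated cold each spread over a wide range. In bulk tissue, fewer cells of a type and less RNA per cell cannot be told apart, and FPKM is a share of the RNA and no amount per cell.

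The spread within groups was common to most members. Control library 1 held the lowest of all 9 values for 182 of 198 members, and repeated cold library 2 the highest of its group for 187. The median ratio of SD to mean of the family sums was 2.73% in cold once, 16.3% in repeated cold and 16.2% in control, while the counting error at the members' median depth was at most 2.42%. Library differences were set beside gene model length. Repeated cold library 2 exceeded the mean of libraries 1 and 3 by a median log2 difference of 0.50 for members under 900 bases, 0.35 at 900 to 1200 bases and 0.28 over 1200 bases, and the same difference over all genes tested was 0.28, 0.20 and -0.15. Control library 2 exceeded library 1 by 0.51, 0.47 and 0.45 for the members in these classes, and by 0.23, 0.19 and -0.05 over all genes. The median change between cold once and control showed little dependence on length, at 0.49, 0.55 and 0.56 for the members and -0.21, -0.16 and -0.16 for all genes in these length classes. Floral organ genes also differed within groups. The summed FPKM of SEP3, AP1, AP3, PI and AG was 7.51, 17.8 and 34.0 in control, 0.583, 5.21 and 3.07 in cold once, and 0.548, 22.1 and 0.889 in repeated cold, so that repeated cold library 2 was high in both floral genes and ribosomal protein genes. In control, floral genes were highest in library 3, whereas 183 of the 198 members were highest in library 2 and 15 in library 3. The part of floral tissue in the results was not tested. Markers of dividing cells, 8 genes summed, spanned 54.7 to 70.1 FPKM in cold once and 51.1 to 76.5 FPKM in repeated cold, against 43.1 to 62.1 FPKM in control, and 1 of the 8, PCNA, was called higher in cold once. Leaf markers moved with the groups as well. The sum of 4 of them was 28783, 29419 and 27770.5 FPKM in control, 35678, 35858 and 32088 FPKM in cold once, and 29393, 33969 and 35243 FPKM in repeated cold, where only the lowest value of repeated cold fell within the control range. RBCS-1A and RCA were called higher and LHCB1.3 lower in both cold groups, and LHCB2.1 was not called. The 2 root markers summed to 1.07, 1.31 and 1.84 FPKM in control, 2.62, 1.94 and 1.98 FPKM in cold once, and 1.38, 1.98 and 3.2 FPKM in repeated cold, and NRT2.1, at most 0.236 FPKM in control, was called higher in both cold groups. The other root marker, PHT1-4, was not called in cold once (-0.28) or repeated cold (-0.24). The part of leaf or root RNA in the results was not tested.

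**Figure D2:**
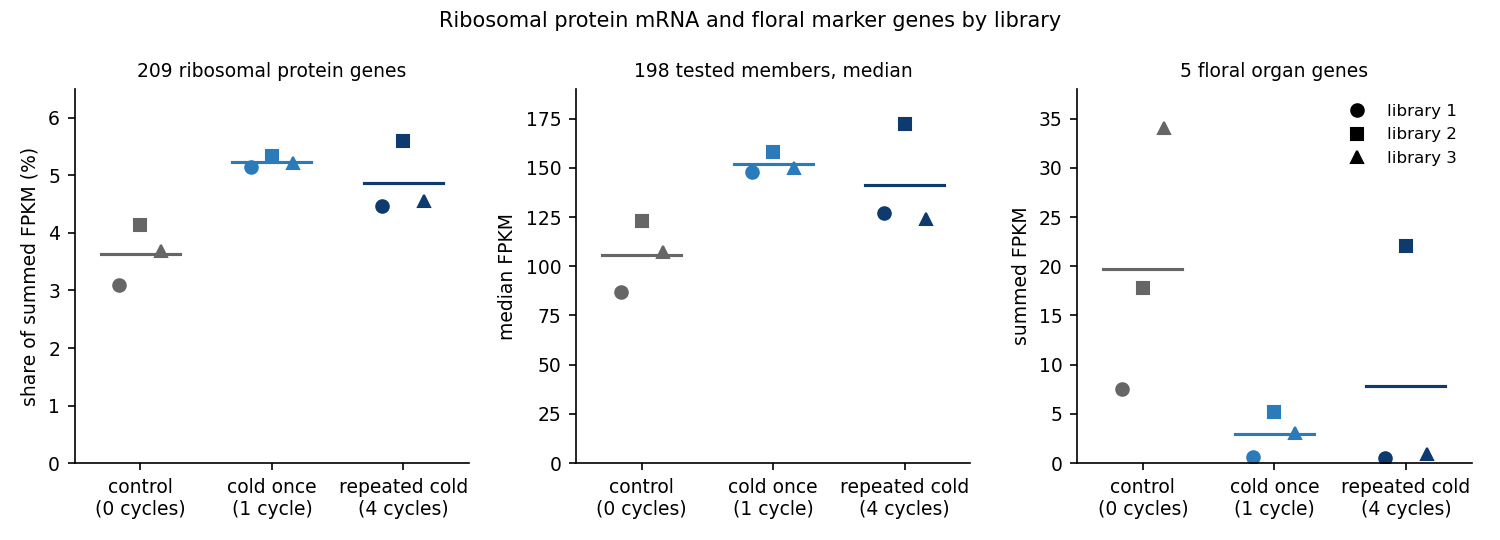
Share of the 209 ribosomal protein genes in all FPKM (percent, left), median FPKM of the 198 tested members (middle) and summed FPKM of 5 floral organ genes (right) in each library; horizontal bars are group means. All cold libraries exceed all control libraries in the first 2 panels, and repeated cold library 2 stands above the other libraries of its group in all 3. In control, library 2 is the highest in the first 2 panels and library 3 in the right panel.

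After a single cold cycle, ribosomal protein genes of both subunits were higher. Any difference among the 3 groups was called for 109 of the 198 tested members by limma's F-test, and for 49.4% of all genes. Of the 198, 125 were higher and 4 lower in cold once than in control, and 69 were not called (limma on log2(FPKM + 1), Benjamini-Hochberg adjusted p under 0.05 over all 17740 genes). The members called higher made up 63.1% of those tested, against 18.7% of all genes, and those called lower 2.02%, against 33.6%; either way, 52.3% of all genes were called. The median log2 change of the members was 0.53 and that of all genes -0.16. Median-of-ratios scaling moved the all-gene median to -0.01 and the members' median to 0.71, with 143 members higher and 3 lower, beside 25.4% of all genes higher. Quantile normalization gave a members' median of 0.38, with 111 higher and 4 lower, where 8889 of all genes were called either way, against 9278 in the main fit. The values of 145 members in cold once lay above all control values without overlap, which 24.0% of all genes did, and those of 4 lay below, which 40.6% of all genes did. With control library 1 left out, 90 were higher and 5 lower (14.9% of all genes higher), and without repeated cold library 2, which enters through the shared estimate of spread, 143 were higher and 4 lower (20.1% of all genes higher). Of the rises, 90 of the 125 were called whichever library was left out.

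The largest rises in the small subunit were those of RPS15AA (AT5G59850) and RPS6A. RPS6 is the ribosomal protein that S6 kinase phosphorylates downstream of TOR. RPS6A was at 119, 151 and 151 FPKM in control, 281, 284 and 275 FPKM in cold once, and 228, 244 and 234 FPKM in repeated cold. Its groups did not overlap, and cold once lay 1.99 times above control in mean FPKM (log2 change 1.00 ± 0.11, limma adjusted p = 9.95e-05, 3 libraries a group; ± is the standard error of the fit throughout). Its paralog RPS6B had 171, 221 and 203 FPKM in control, 298, 288 and 297 FPKM in cold once, and 245, 293 and 257 FPKM in repeated cold. RPS6B also rose, by 0.57 ± 0.12, and RPS6A made up 48.1% to 49.7% of the pair's FPKM in cold once, against 40.5% to 42.7% in control.

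RPS15AA (AT5G59850) was at 50.2, 64.5 and 66.8 FPKM in control, 127, 124 and 127 FPKM in cold once, and 94.2, 104 and 98.1 FPKM in repeated cold. The cold once values were about level with one another and all above control (1.06 ± 0.12, limma adjusted p = 0.000107). This locus overlaps AT5G59860, and without strand information the reads of overlapping genes cannot be told apart. The same limit holds for other members named here, RPS17C, RPL7A, RPL24A, RPL30C and the low RPS8B among them. The second locus with that symbol, AT1G07770, was the more abundant of the pair in control (96.3, 129 and 109 FPKM) and was not called (0.34 ± 0.14). RPS3AA, whose protein sits near the mRNA exit of the small subunit, had 355, 358 and 349 FPKM in cold once, against 172, 207 and 208 FPKM in control (0.86 ± 0.11). RPS17C (0.86 ± 0.13) and RPS20B (0.85 ± 0.14) followed. RPS5A (AT2G37270) was at 128, 123 and 124 FPKM in cold once, against 63.1, 81.9 and 75.2 FPKM in control (0.77 ± 0.11), whereas its more abundant paralog RPS5B (AT3G11940) changed by 0.32 ± 0.11, a call that was lost without any 1 of 5 libraries (adjusted p up to 0.117) or with quantile normalization (adjusted p = 0.598). In all, 58 of 83 small-subunit members were higher and 2 lower, with a median of 0.50.

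In the large subunit 62 of 104 members were higher and 1 lower, with a median of 0.55. RPL30B was at 151, 200.5 and 189 FPKM in control, 337, 346 and 336 FPKM in cold once, and 272, 318 and 279 FPKM in repeated cold. Both cold groups lay above control without overlap, and cold once was higher by 0.92 ± 0.12 (adjusted p = 0.000298). Its paralog RPL30C had 151, 217 and 175 FPKM in control and 220.5, 221 and 223 FPKM in cold once, and was not called (0.31 ± 0.18). RPL19B, a minor copy of a protein that helps bridge the subunits, had 73.8, 68.5 and 64.0 FPKM in cold once, against 29.1, 42.7 and 39.0 FPKM in control (0.89 ± 0.16), while RPL19A, the most abundant member of all, was at 533, 566 and 549 FPKM, against 386, 517 and 439 FPKM, and was not called (0.30 ± 0.15). RPL7A rose by 0.87 ± 0.11 and RPL7B by 0.67 ± 0.12, and their paralog RPL7D was not called (-0.32 ± 0.15). RPL23AB, of a family that lies at the exit of the peptide tunnel, had 129, 128 and 133 FPKM in cold once, against 68.2, 75.3 and 73.6 FPKM in control, with little spread in either group (0.84 ± 0.08, adjusted p = 5.47e-05). RPL23AA, the more abundant copy, rose by 0.60 ± 0.13.

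Other large-subunit genes with a known place in the ribosome were also higher. RPL4A (0.70 ± 0.10) and RPL4D (0.57 ± 0.10) encode a protein that lines the peptide tunnel. RPL5B (0.57 ± 0.14) belongs to the protein that carries the small ribosomal RNA of the large subunit into the ribosome. All 3 genes of RPL10, a protein near the peptidyl transferase centre, were higher, RPL10A by 0.61 ± 0.12, RPL10B by 0.78 ± 0.10 and RPL10C by 0.47 ± 0.13. The call of RPL10C was lost without control library 1 (adjusted p = 0.059) or cold once library 1 (adjusted p = 0.053). RPL24A rose by 0.80 ± 0.14, and RPL24B, whose loss alters the patterning of the pistil, by 0.53 ± 0.19. The call of RPL24B was lost without any 1 of 5 libraries (adjusted p up to 0.138), without a filter on low values (0.062) and with quantile normalization (0.123).

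Of the 11 stalk members tested, 5 were higher and 1 lower in cold once, with a median of 0.59. RPP0B, the main gene of the stalk base, was at 347, 359 and 351 FPKM in cold once, against 192, 239 and 238 FPKM in control (0.67 ± 0.11). RPP1B rose by 0.77 ± 0.18, RPP2B by 0.72 ± 0.12, RPP0A by 0.65 ± 0.17 and RPP2D by 0.61 ± 0.18, the last lost without control library 1 or 3 or cold once library 2 (adjusted p up to 0.07). The plant-specific stalk genes RPP3A (0.26 ± 0.34) and RPP3B (0.32 ± 0.28) were not called. The 1 lower gene was RPP2C, described with the other falls.

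**Figure D3:**
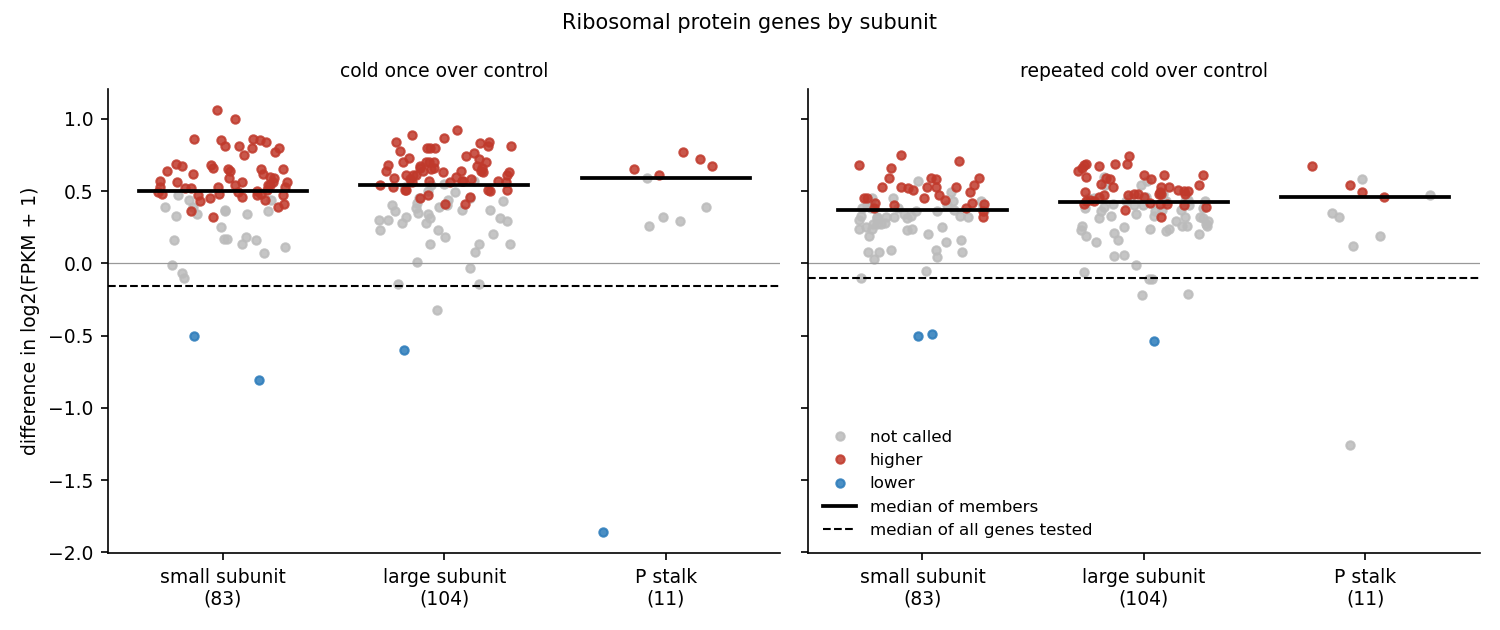
Change in log2(FPKM + 1) of each of the 198 tested members in cold once over control (left) and repeated cold over control (right), by subunit; red points were called higher, blue points lower and grey points not called. Thick bars are the medians of the members and the dashed line is the median of all genes tested, which lies below them in every class.

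Calls were also counted by level, as a description, since calls over all genes are not given by level here. Among members with a mean of at least 200 FPKM, 44 of 58 were higher in cold once and 0 lower; at 50 to 200 FPKM, 65 of 105 were higher and 0 lower; at 10 to 50 FPKM, 12 of 24 were higher and 1 lower; and under 10 FPKM, 4 of 11 were higher and 3 lower. The median change was 0.55 in the first of these classes, 0.54 and 0.45 in the next ones, and 0.13 in the last. Of the most abundant members, RPS8A had 544, 566 and 549 FPKM in cold once, against 312, 433 and 368 FPKM in control, and rose by 0.59 ± 0.15. RPS23B, of the decoding centre, rose by 0.53 ± 0.14, RPL17B by 0.56 ± 0.15 and RPL37B by 0.50 ± 0.12. RPL40B (AT3G52590), which encodes a ubiquitin fusion, was not called (0.31 ± 0.27), nor was the ubiquitin fusion gene RPS27AB (0.33 ± 0.13) or the stalk gene RPP1A (0.39 ± 0.15). Of the least abundant, RPS8B had 2.55, 2.02 and 2.69 FPKM in cold once, against 0.677, 1.23 and 1.22 FPKM in control, and rose by 0.75 ± 0.17, while RPS30A at AT4G29390 was not called (0.13 ± 0.30). Of the loci that share the symbol RPS18C, AT1G22780 was called higher (0.62 ± 0.23), a call lost without any 1 of 6 libraries (adjusted p up to 0.156), and AT1G34030 (0.47 ± 0.26) and AT4G09800 (0.11 ± 0.17) were not called. Leaving aside the 59 members that another annotated gene overlaps, 92 of 142 were higher and 3 lower. Leaving aside the 7 whose sequence is under 80% unique in 50-base windows, 120 of 191 were higher and 4 lower.

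The members were also summed over the paralogs of each family, so that the split of reads between the summed copies matters less. It still matters where copies differ in length, since FPKM divides the reads of each copy by its own length. Only copies caught by the name rule were summed, so reads shared with any other copy still count. In 5 families, RPL37a and RPL27a among them, the sum is that of 1 gene. Of the 78 families, 56 were higher in cold once than in control and 0 lower (limma, adjusted p under 0.05; in that fit 18.4% of all features were higher and 33.8% lower), and all 78 estimates were above 0, with a median of 0.53. The largest was RPS6, at 574 ± 4.0 FPKM in cold once and 339 ± 42.9 FPKM in control (SD, 3 libraries each; log2 change 0.77 ± 0.11). Of small-subunit families 27 of 31 were higher, of large-subunit families 26 of 43 and of stalk families 3 of 4. Quantile normalization left 37 families higher and 0 lower, with a median of 0.28. All features called either way numbered 8776 in that fit, against 9201 in the main fit. RPL37a (0.73 ± 0.17), RPS30 (0.73 ± 0.15), RPL29 (0.72 ± 0.13) and RPS3a (0.72 ± 0.11) were next to RPS6, and RPS16 (0.22 ± 0.20), RPL19 (0.27 ± 0.15) and RPL14 (0.30 ± 0.17) had low estimates and were not called. RPL14 was divided: RPL14A had 113, 124 and 115 FPKM in cold once, against 53.2, 84.4 and 66.7 FPKM in control, and rose by 0.80 ± 0.21, while RPL14B, which supplied 82.9% of the family's FPKM, was not called (0.20 ± 0.16).

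**Figure D4:**
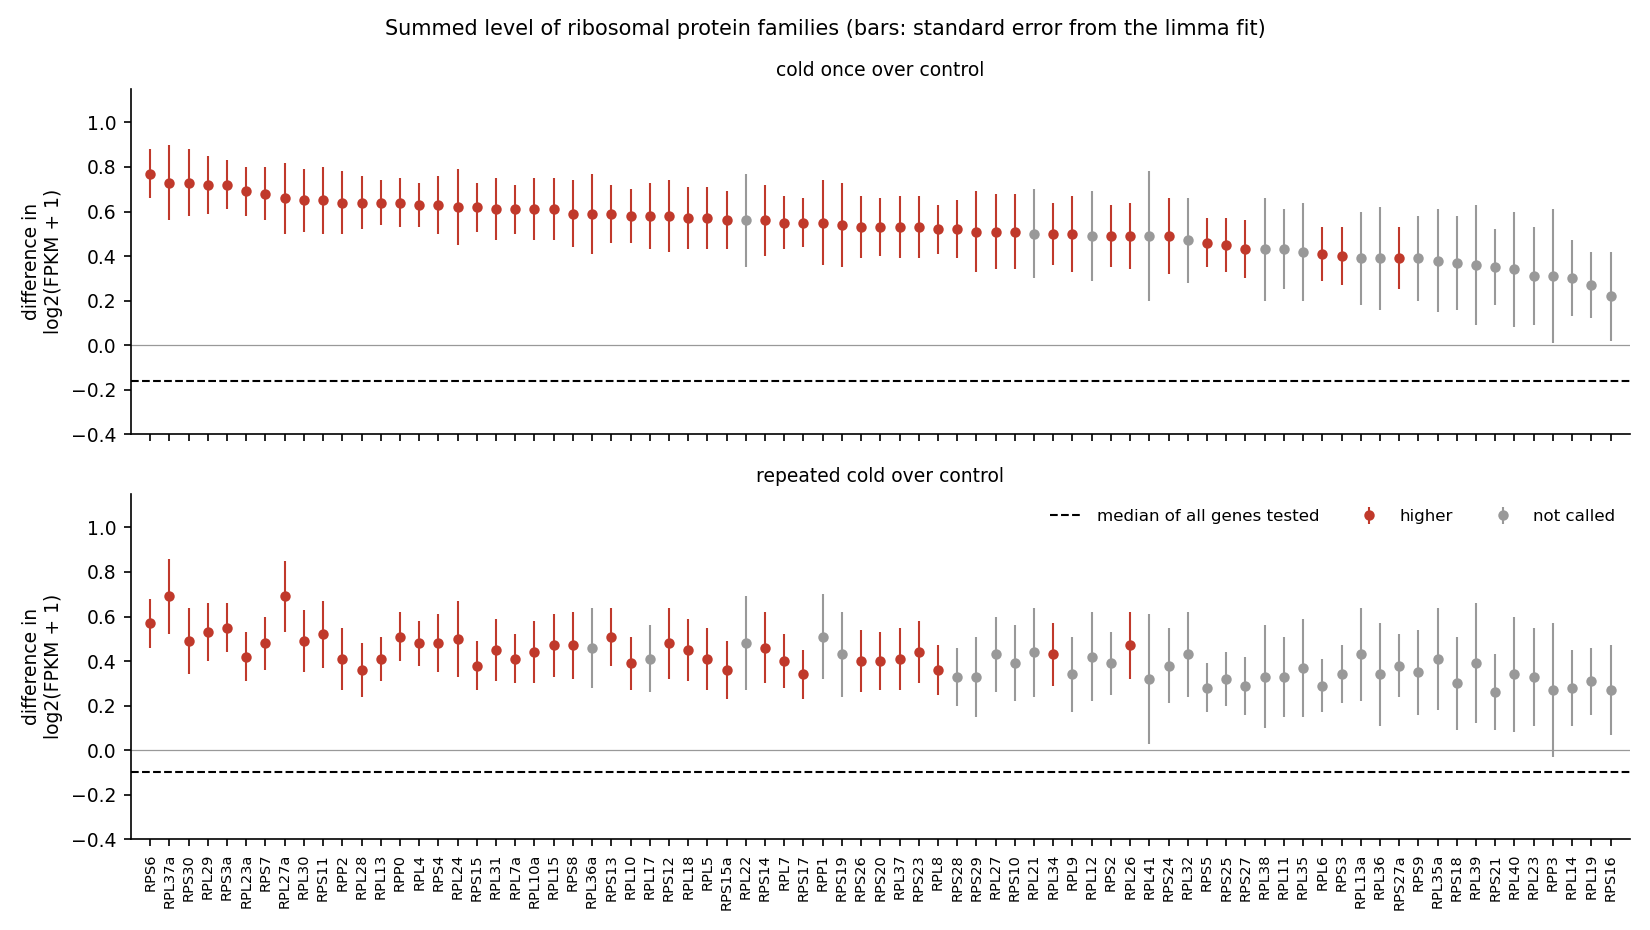
Change in log2(FPKM + 1) of the summed level of 77 of the 78 families, ± standard error, in cold once over control (top) and repeated cold over control (bottom), ordered by the upper panel; red was called higher, grey was not called, and the dashed line is the median of all genes. Every family drawn lies above 0 in both panels, and RPS6 is the first in cold once.

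After repeated cold most estimates were again above 0. Of the 198 members, 79 were higher and 3 lower than in control (39.9% and 1.52%, against 14.6% and 24.9% of all genes), with a median of 0.40 beside -0.10 for all genes. Without overlap, 98 members lay above control (19.0% of all genes) and 2 below (31.7%). Each of the 79 was also called higher in cold once, a comparison that shares the control libraries. Median-of-ratios scaling gave 109 higher and 1 lower, beside 19.6% of all genes higher. The count rested on single libraries: it was 31 higher and 3 lower without control library 1 (11.1% of all genes higher), 45 higher and 1 lower without control library 3, 46 higher and 4 lower without repeated cold library 2 (15.4% of all genes higher), and 114 higher and 1 lower without control library 2. Over all genes, 7013 were called either way with all libraries, 5353 without control library 3 and 5943 without control library 2. Of the 79, 31 were called whichever library was left out, RPS6A, RPS15AA (AT5G59850), RPL30B, RPL19B, RPS3AA, RPL24A, RPL4A, RPL4D, RPL10B, RPL23AB and RPP0B among them. Of small-subunit members 30 of 83 were higher and 2 lower, of large-subunit members 45 of 104 and 1, and of stalk members 4 of 11 and 0.

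RPS6A led the rises in repeated cold as well (0.75 ± 0.11, adjusted p = 0.000785), followed by RPL19B (0.74 ± 0.16) and RPS15AA at AT5G59850 (0.71 ± 0.12). RPL19B had 52.6, 70.3 and 63.2 FPKM in repeated cold, all above the control values given above. RPL37AC was the only gene that the name rule placed in its family. It had 409, 595 and 415 FPKM in repeated cold, against 244, 337 and 295 FPKM in control (0.69 ± 0.17), and 489.8, 476 and 472 FPKM in cold once. RPL27AC (0.69 ± 0.16) and RPL27A (0.68 ± 0.17), which belong to different families, rose in cold once too, RPL27AC by 0.66 ± 0.16 and RPL27A by 0.67 ± 0.17. Of the families 39 of 78 were higher than in control and 0 lower (14.5% of all features higher and 25.1% lower), with a median of 0.41 and the largest estimates, 0.69, for RPL37a and RPL27a. RPS6 summed to 500.4 ± 33.3 FPKM in repeated cold and 339 ± 42.9 FPKM in control (0.57 ± 0.11). The families' count was 10 without control library 1, 13 without repeated cold library 2, 14 without control library 3, 24 without repeated cold library 3 and 25 without cold once library 3. All features called either way numbered 5498, 6952, 5332, 5731 and 6430 in these fits, against 6974 in the main fit. The families' count was 17 with quantile normalization, where the median was 0.23 and not 0.41, and 22 without a filter on low values. No family was lower in any of these fits. All features called either way numbered 6897 with quantile normalization and 6877 without the filter.

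Few members were called between the cold groups. In repeated cold, 0 members were higher and 1 lower than in cold once (0.738% and 0.536% of all genes, 1.27% in all), 21 members had an unadjusted p under 0.05, and the median was -0.12 beside 0.06 for all genes. No family was called (limma, adjusted p under 0.05), and 2 had an unadjusted p under 0.05. Yet 43 members lay below all cold once values without overlap and 0 above, against 9.92% and 13.9% of all genes. The median was -0.27 without repeated cold library 2 and -0.04 without repeated cold library 1. The 1 call was RPL23AB, at 94.3, 97.5 and 96.9 FPKM in repeated cold, against 129, 128 and 133 FPKM in cold once (-0.43 ± 0.08, adjusted p = 0.0447). The groups do not overlap, but the call was lost on leaving out any 1 of the 9 libraries (adjusted p up to 0.171), with quantile normalization (0.0665) and with limma voom on reads recovered from the FPKM values (0.0563). RPS5A had 95.3, 97.0 and 93.2 FPKM in repeated cold, against 128, 123 and 124 FPKM in cold once, a difference that missed the threshold (-0.39 ± 0.11, adjusted p = 0.0988).

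Among the 4 members that were lower after a single cold cycle are RPP2C, RPS9C and RPS16B, each a minor copy of its family. RPP2C, a stalk gene with a single exon, was at 4.65, 10.4 and 16.5 FPKM in control, 1.04, 2.46 and 2.33 FPKM in cold once, and 2.69, 8.36 and 1.37 FPKM in repeated cold. It fell by 1.86 ± 0.53 on the log2 scale in cold once (adjusted p = 0.0156), a call lost without control library 3 (0.0602) or cold once library 1 (0.0517), and it was not called in repeated cold (-1.26 ± 0.53, adjusted p = 0.0866). Its share of the RPP2 family was 0.618% in cold once and 1.47% in repeated cold, against 5.05% in control. RPP2 was the only family with both a higher and a lower member in cold once. Of the floral genes, SEP3 showed the same order of libraries in control (2.16, 6.32 and 11.3 FPKM), had 0.312, 0.883 and 0.541 FPKM in cold once and had 0.129, 5.12 and 0.0757 FPKM in repeated cold. The part of floral tissue in the RPP2C values was not tested. RPS15C, a member below the filter, was likewise highest in control library 3 (1.32 FPKM).

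RPS9C was at 10.3, 10.3 and 11.4 FPKM in control, 4.76, 5.86 and 6.52 FPKM in cold once, and 6.02, 9.03 and 7.03 FPKM in repeated cold. Both cold groups lay below control without overlap. It fell by 0.81 ± 0.15 in cold once (adjusted p = 0.00185) and by 0.50 ± 0.15 in repeated cold (adjusted p = 0.0267). The second of these calls was lost with either other scaling (adjusted p up to 0.108) and without any 1 of 5 libraries (up to 0.0877). RPS9B, which supplied 96.8% of the family's FPKM, had 256, 271 and 251 FPKM in cold once, against 156, 234 and 191 FPKM in control, and was not called (0.44 ± 0.19). RPS16B fell by 0.50 ± 0.16 in cold once and by 0.49 ± 0.16 in repeated cold, and both calls were lost with median-of-ratios scaling (adjusted p = 0.135 and 0.121), with quantile normalization and without several single libraries.

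**Figure D5:**
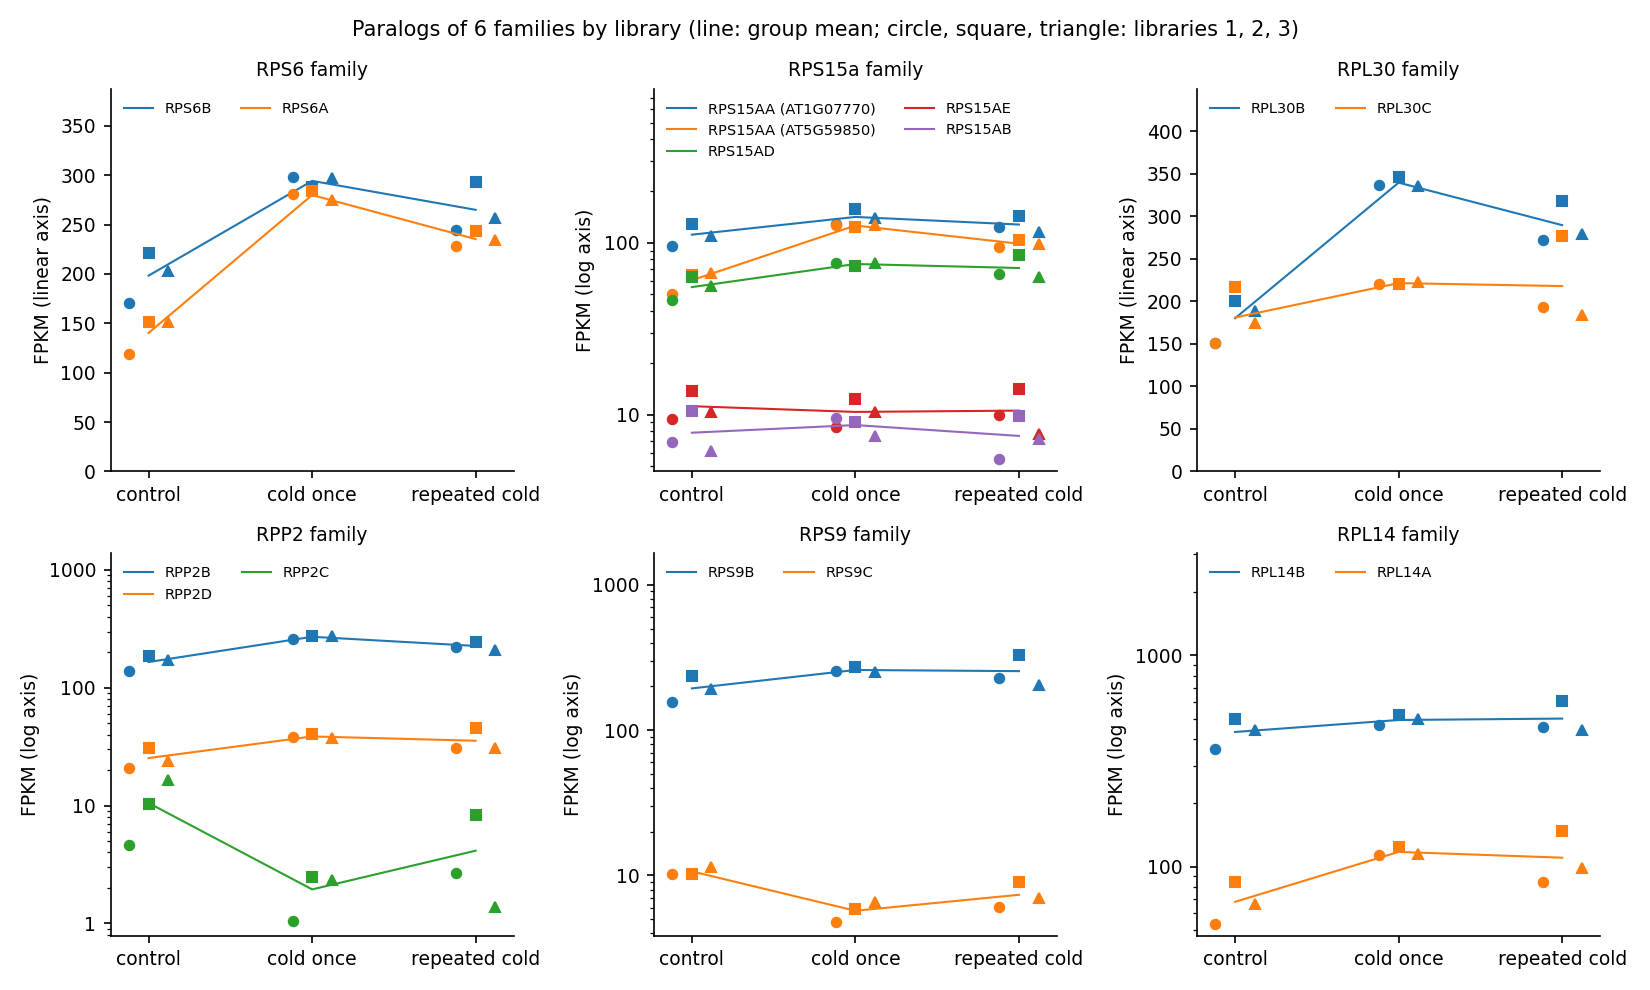
FPKM of the tested paralogs of 6 families in each library (control, cold once, repeated cold from left to right); circles, squares and triangles are libraries 1, 2 and 3, lines join group means, the RPS6 and RPL30 panels have a linear axis from 0 and the others a log axis. RPS6A and RPL30B move toward or past their paralogs after cold, while RPP2C and RPS9C lie below their control values in cold once.

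The shares of paralogs within their families were compared as well. Such shares sum to 100%, so that a larger share of one copy goes with a smaller share of another. Of 193 tested members in families of 2 or more, the share of the family's FPKM lay above all control values in cold once for 64 and below for 63. In repeated cold the numbers were 37 and 44. No such share over other genes is available as a background, so these counts are a description only. RPL30B made up 60.1% to 61.0% of its family in cold once, against 48.0% to 52.0% in control, and RPS5A 33.0% to 35.0%, against 27.1% to 27.5%. RPL7D made up 10.5% to 11.2%, against 19.5% to 21.5%. In 13 of the 73 families of 2 or more genes, 1 gene supplied at least 80% of the FPKM over all libraries.

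Changes were also split by promoter motif. In cold once the median log2 change was 0.50 for the 97 tested members with a telo box and 0.54 for the 101 without, and 0.53 for both the 152 with a site II element and the 46 without. Called higher were 58 of 97 with and 67 of 101 without a telo box, 98 of 152 with and 27 of 46 without a site II element, and 46 of 80 with both motifs and 79 of 118 without the pair. In repeated cold it was 0.40 with and 0.40 without a telo box, and 0.41 with and 0.36 without a site II element. These values are a description, with no test.

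Across the 9 libraries most members had similar profiles: the correlation of a member's log2(FPKM + 1) with the mean of all standardised members had a median of 0.93, was at least 0.9 for 135 of 198, and was negative for 5. The 5 genes outside the set with the most similar profile over these libraries were AT1G36310 (r = 0.993), ER-ANT1 (0.985), HTR1 (0.985), EIF(ISO)4E (0.983) and AT2G44860 (0.982). The points share libraries and their depth, so these correlations are given as a description. EIF(ISO)4E, a cap-binding translation initiation factor, had 25.1, 37.3 and 31.2 FPKM in control, 53.3, 51.9 and 51.2 FPKM in cold once, and 40.7, 58.7 and 40.9 FPKM in repeated cold. Its first control library was the lowest of the 9 and its second repeated cold library the highest, as for most members.

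Genes that build ribosomes and drive translation were examined as companion lists. Of all genes tested, 18.7% were higher and 33.6% lower in cold once, and 14.6% and 24.9% in repeated cold, which is the background for these counts. Of 9 tested ribosome biogenesis genes, 6 were higher and 1 lower in cold once (median 0.66), and 4 higher and 2 lower in repeated cold (median 0.29). The snoRNP genes MED36A, which encodes fibrillarin (1.37 ± 0.15 in cold once, 0.63 ± 0.15 in repeated cold), and NOP56 (0.95 ± 0.12 and 0.47 ± 0.12) rose in both. AT4G31420, described in the table as REI1-LIKE 1, a factor for late maturation of the large subunit, fell by 0.49 ± 0.09 and 0.54 ± 0.09, and the nucleolin gene NUCL1 was called in repeated cold alone (-0.44 ± 0.10, with -0.08 ± 0.10 in cold once). Of 21 translation factor genes, 15 were higher and 3 lower in cold once (median 0.44), and 7 higher and 2 lower in repeated cold (median 0.22). The small-subunit scaffold genes RACK1C (1.25 ± 0.11 and 0.73 ± 0.11) and RACK1B (1.12 ± 0.11 and 0.71 ± 0.11) had larger estimates than any ribosomal protein member in cold once, whereas RACK1A, the most abundant of that trio, changed by 0.36 ± 0.10 and, in repeated cold, 0.22 ± 0.10, not called. TCTP1, a growth-promoting protein gene, fell by 0.90 ± 0.21 and 0.62 ± 0.21, and the initiation factor gene ELF5A-1 by 0.52 ± 0.11 and 0.35 ± 0.11. ELF5A-1 was the minor copy, with a mean of 11.7 FPKM in control, against 555 FPKM for ELF5A-2. ELF5A-2 was not called in cold once (0.17 ± 0.09) or repeated cold (0.05 ± 0.09).

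Of 12 genes of the TOR pathway and its counterparts, 1 was higher and 3 lower in cold once (median -0.27), and 1 higher and 4 lower in repeated cold (median -0.24), counts to be read against the same background of 33.6% and 24.9% of all genes lower. The 1 higher gene was ATPK1, an S6 kinase gene, at 58.8 FPKM in cold once and 65.5 FPKM in repeated cold, against 21.2 FPKM in control (means of 3 libraries; 1.43 ± 0.09 and 1.58 ± 0.09, adjusted p = 4.88e-06 and 4.62e-06). The neighbouring S6 kinase gene ATPK2 was not called in cold once (-0.41 ± 0.22) and was lower in repeated cold (-0.75 ± 0.22). KIN10, a SnRK1 kinase gene that acts against growth under energy shortage, fell by 0.69 ± 0.09 and 0.63 ± 0.09. TOR itself was not called in either comparison (-0.49 ± 0.23 and -0.40 ± 0.23).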

How the data were processed

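Leaf and stem RNA (0.5 µg of total RNA, SMARTER mRNA-Seq) was measured in 3 control, 3 cold once and 3 repeated cold libraries. The deposited table gives FPKM per gene, computed by the authors; the submitters' processing notes name TopHat, Cufflinks and Cuffdiff, and their settings and the genome build are not given in the sources used here. Of 25099 loci found in TAIR10.1, 25094 have the same start and end as in the table, so promoters were read from that build.

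FPKM steps give whole reads for 98.59% of genes (tolerance 0.05 reads) and a depth of 17.98 to 21.49 M reads per library. A count of 3 reads of a gene of 1 kb correspond to 0.14 to 0.167 FPKM, a limit that covers counting error only. Genes with at least 1 FPKM in at least 3 of 9 libraries were tested (17740) with limma 3.58.1 in R 4.3.3 on log2(FPKM + 1), with 1 mean per group, a trended prior (3.21 prior degrees of freedom) and Benjamini-Hochberg adjustment over all of them. Fold changes on this scale understate the change of low genes. Family sums replaced their members in a second fit of 17620 features. The script was tested on simulated data. Python 3.11.15 with pandas 2.3.3, numpy 2.4.6 and matplotlib 3.10.9 served for summaries and plots.

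Nothing in the labels says that the libraries of a group came from separate plants, so p-values measure only the spread between these libraries, which may be technical. Members, companion lists and markers were chosen with earlier results of these data known. Named members were chosen by rule: for each comparison up to 8 called members with the largest rise and 8 with the largest fall, the 8 highest and 4 lowest members, their paralogs, and genes fixed by name for their roles. The text describes most of these; some paralogs are left to the counts. Other genes outside the members come from the lists or are the 5 most similar profiles. Alternatives were other pseudocounts, filters and scalings, a replicate block, and leaving out each library. Values of 1 family and its members entered every fit and count and are not reported here.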

Additional observations from a re-analysis of the deposited data

How the results depend on the processing

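No called member or family changed direction under any alternative run. The median of all genes did: in repeated cold against control it was -0.10, and 0.01 with median-of-ratios scaling, and between the cold groups it was 0.06, and -0.01 with quantile normalization. The count of members called in cold once against control (129) stayed within 1.5 times: 95 to 150 when each library was left out in turn, and 115 with quantile normalization. In repeated cold against control (82), leaving out a library gave 34 to 115. In repeated cold against cold once (1), it gave 0 throughout, and quantile normalization and limma voom on recovered reads also gave 0. Families called in cold once against control (56) numbered 37 with quantile normalization and 38 to 63 with a library left out. In repeated cold against control (39) they numbered 22 without a filter on low values, 17 with quantile normalization and 10 to 58 with a library left out. Calls over all genes moved as well when a library was left out. They ran from 7741 to 9988 in cold once (9278 in the main fit) and from 5353 to 6975 in repeated cold (7013), each against control. Between the cold groups they ran from 17 to 212 (226 in the main fit). That comparison had 274 calls over all genes with quantile normalization and 197 with limma voom. Why these counts moved was not tested. Pseudocounts of 0.1 and 5 moved no count of called members or families by more than 1. Over all genes they gave 6906 and 7083 calls in repeated cold against control, where the main fit gave 7013.

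Replicate numbers in the titles do not show that libraries are paired. Deviations of same-numbered libraries correlated at 0.22, 0.22 and 0.03 between cold once and control, at 0.37, 0.46 and 0.04 between repeated cold and control, and at 0.20, 0.10 and -0.11 between repeated cold and cold once. For libraries of different number the ranges were -0.22 to 0.01, -0.44 to 0.13 and -0.30 to 0.20, in the same order. Deviations from a group mean cancel out within the group, so these values depend on one another. With the replicate number as a block, 153 members were called in cold once and 127 in repeated cold, each set against control, and 2 between the cold groups. Over all genes, that fit called 10054, 7988 and 704 in these comparisons, against 9278, 7013 and 226 in the main fit. Families called in repeated cold against control then numbered 60, against 39 in the main fit. All features called either way numbered 7921 there, against 6974.

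The planned edgeR test was not run, since the table holds FPKM, for which a count test was not used here. The voom fit was chosen in its place after seeing the data, and called 129, 83 and 0 members. For the members chosen by the naming rule, calls were lost in 58 combinations of member and alternative for cold once and in 101 for repeated cold, each set against control, and in 11 between the cold groups. Depth limits the 11 members below the filter, for which no difference was tested.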
